A study of Mus musculus with 7 samples.

Results

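Nr5a1, Nr0b1, Wt1, Gata4, Gata6, Tcf21, Cited2, Nr2f1 and Nr2f2 are 9 transcription regulators that are known from the formation of the adrenal cortex. They were chosen by symbol, and all 9 were found among the 35976 gene symbols of the table. Total RNA was sequenced from pooled adrenals of the inbred mouse strain C57BL/6J, and each group was 1 pool and 1 library. The pools held 40 glands at E18.5, an embryonic stage just before birth (sex not given), 16 male and 22 female glands at postnatal day 1 (P1), 6 male and 6 female glands at 2 weeks, and 4 male and 4 female glands at 12 weeks. The labels give no genotype and no treatment for any group. Levels are normalized counts, that is, reads in a gene divided by 1 size factor per library. A gene with 0 reads may still have up to 3, or 2.45 to 4.19 normalized counts depending on the library.

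The adrenal cortex and the gonads arise from a shared primordium in the mesenchyme under the coelomic lining. There Wt1 and its partner Cited2 act upstream of Nr5a1 (steroidogenic factor 1), the nuclear receptor that switches on the genes of steroid synthesis. Nr0b1 (Dax1) is an X-linked repressor of Nr5a1 activity, Gata4 and Gata6 are zinc finger factors with overlapping targets, and Tcf21, Nr2f1 and Nr2f2 are known from mesenchyme, including the capsule that surrounds the cortex.

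On GRCm38, Nr5a1 lies at chr2:38692656-38714542 (minus strand), Nr0b1 at chrX:86191764-86195947 (plus), Wt1 at chr2:105126529-105173616 (plus) and Gata4 at chr14:63198922-63271692 (minus). Tcf21 lies at chr10:22817281-22820174 (minus), Cited2 at chr10:17723218-17725674 (plus), Nr2f1 at chr13:78188973-78199757 (minus) and Nr2f2 at chr7:70351944-70366735 (minus). All are protein coding. RefSeq promoter sequence was at hand for 5 of the 9 genes (Nr0b1, Tcf21, Cited2, Nr2f1 and Nr2f2). In windows of 230 bases, from 250 to 21 bases before a gene's RefSeq start, both strands were searched for AAGGTCA, the extended element to which Nr5a1 is known to bind, and for AGGTCA, the nuclear receptor core that it contains. The GATA motifs AGATAA and TGATAA were searched too. Of 32851 windows of this length, 3.82% held AAGGTCA, 13.04% AGGTCA, 9.49% AGATAA and 7.54% TGATAA. None of the 5 members held AAGGTCA. Nr0b1 alone of the 5 held AGGTCA, 126 bases before its RefSeq start, and Tcf21 held AGATAA 31 bases before its RefSeq start. The starts in RefSeq differ from those of the GENCODE positions above. In Nr0b1 the RefSeq start lies 11 bases and in Cited2 10 bases inside the GENCODE gene, so that the Nr0b1 match is 115 bases before the GENCODE start. The Tcf21 start lies 31 bases inside, so its match is within the GENCODE gene. Nr2f1 has RefSeq starts 884 and 3308 bases inside, so both of its windows lie within the GENCODE gene and not before it. The promoter windows of Nr0b1 and Cited2 are shown because, among these 5 genes, they had the clearest differences at 12 weeks. For Nr0b1 this was between the sexes and for Cited2 against the younger ages. The sequences are from RefSeq, GRCm38.p6, and capitals mark the AGGTCA match, with no match in Cited2.
Nr0b1, chrX:86191525-86191754, plus strand: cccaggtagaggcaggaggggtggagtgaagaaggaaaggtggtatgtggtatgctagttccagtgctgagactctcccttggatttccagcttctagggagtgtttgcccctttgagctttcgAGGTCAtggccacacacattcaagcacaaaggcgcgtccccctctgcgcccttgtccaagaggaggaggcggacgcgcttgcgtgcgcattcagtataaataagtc
Cited2, chr10:17722978-17723207, plus strand: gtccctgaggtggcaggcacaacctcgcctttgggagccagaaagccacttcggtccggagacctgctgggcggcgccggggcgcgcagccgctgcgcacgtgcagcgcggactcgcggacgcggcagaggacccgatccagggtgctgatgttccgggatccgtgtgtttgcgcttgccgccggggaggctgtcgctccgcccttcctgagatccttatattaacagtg

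Reads in genes ranged from 15184210 to 23551289 per library, and the labels give all 7 libraries 1 run and lane. Adrenal identity was checked with Star, the cholesterol carrier of steroid-forming cells (47002 to 372882 normalized counts), and Th, the first enzyme of catecholamine synthesis (4970 to 7507), which were present in every library. Other tissues were present too, most of all in the 3 youngest libraries. The summed level of 8 liver genes was 236347 to 331335 there against 404 to 34266 at 2 and 12 weeks. For 8 kidney tubule genes the sums were 1347 to 9467 against 35.0 to 64.4. The 8 exocrine pancreas genes reached 6505 in the P1 male library and at most 103.8 elsewhere, and the 8 adipocyte genes were at 2926 to 3118 in the 3 youngest libraries and 28063 to 51190 later. In the library labelled P1 female, 4 Y-linked genes stood at a median of 21.02% of their P1 male level (15.6 to 28.1%), whereas the 2-week and 12-week female libraries were at 0.0758% or less of the males of their age. The parts of these tissues and of the P1 female pool in the results below were not tested. In whole glands, fewer cells of a type and less RNA per cell cannot be told apart.

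Nr5a1 was the most abundant of the 9. Per kilobase of merged exon, its mean over the 7 libraries was 1811 normalized counts, followed by Gata6 (241.9), Cited2 (234.9), Nr2f2 (228.4), Nr0b1 (126.8), Tcf21 (50.9), Wt1 (40.5), Nr2f1 (38.1) and Gata4 (16.8). The lowest library of Nr5a1 (1131) lay above the highest of any other member (460.5, Cited2). All other neighbours in this order had overlapping ranges over the libraries. The ratio of the highest to the lowest library was 20.9 for Wt1, 8.76 for Gata4, 7.58 for Nr0b1, 5.40 for Tcf21, 4.73 for Cited2, 2.42 for Nr5a1, 2.06 for Nr2f2, 1.89 for Nr2f1 and 1.51 for Gata6. The order of spread was thus led by Wt1 and Gata4, and Gata6 varied least.

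**Figure D1:**
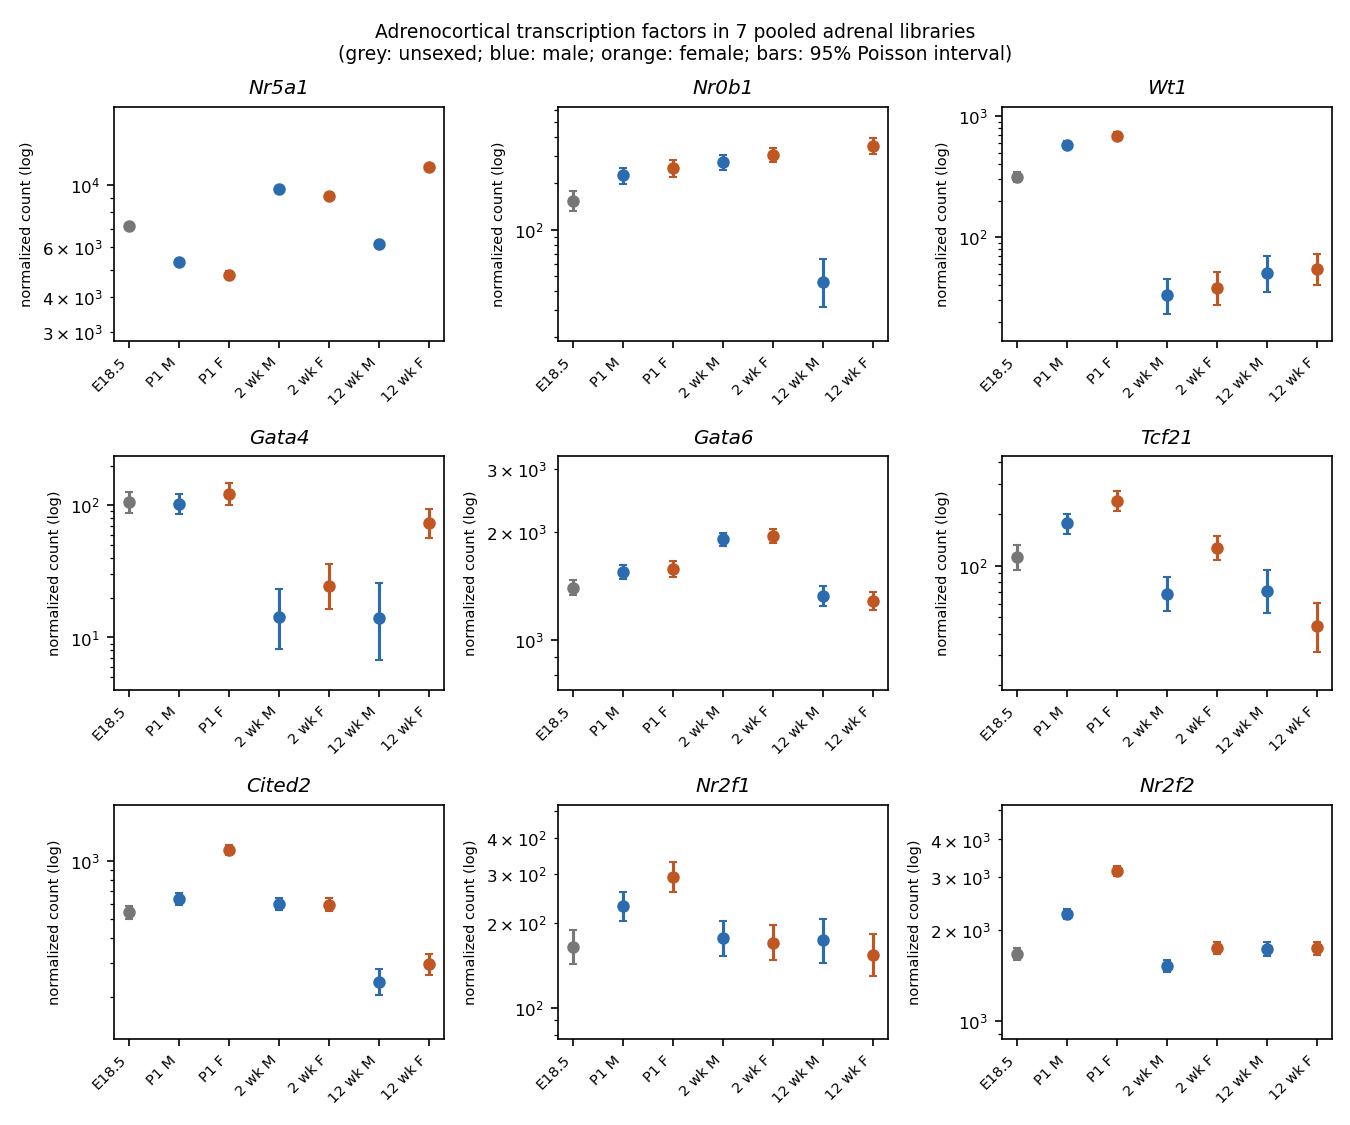
Normalized counts (log axis) of the 9 genes in each of the 7 libraries, with 95% Poisson intervals of the reads, which cover counting error only (grey, E18.5; blue, male; orange, female). Wt1 is high in the 3 youngest libraries and low in the other 4, Nr0b1 is low in the 12-week male library, and Gata6 spans 1.51-fold.

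Ages were compared in the 6 postnatal libraries with limma and sex as a block, over 16720 genes. The genes tested had a mean of 10 or more normalized counts, and all 9 members passed. Differences are later minus earlier, in log2(normalized count + 1), so that the change of low genes is understated. A call is an adjusted p of at most 0.05. From P1 to 2 weeks, 3 members were called lower (Wt1, Gata4 and Nr2f2) and 0 higher, where 10.5% of all genes were called lower and 5.89% higher. From 2 to 12 weeks 2 members were called lower (Cited2 and Gata6) and 0 higher, against 9.89% and 5.40% of all genes. From P1 to 12 weeks 5 were called lower (Wt1, Cited2, Tcf21, Gata4 and Nr2f2) and 0 higher, against 23.5% and 17.6%. The members' median differences were -0.58, -0.15 and -0.89 in these comparisons, and the medians of all genes tested were 0.003, -0.03 and -0.03. Genes of the lists below that are counted as rising or falling are such calls, to be set against the shares of all genes given here. The spread in this fit comes from how the 2 sexes depart from a common age change, with 2 residual degrees of freedom, and p-values measure the spread between these pools. From P1 to 2 weeks, 0 members and 28 of all genes were called without the P1 female library, and 0 members and 2 genes without the P1 male library, against 3 and 2737 with all 6. With no filter on low values, Wt1 and Cited2 from P1 to 12 weeks were the only members still called. With a common prior variance, Wt1 from P1 to 2 weeks and Wt1, Cited2 and Tcf21 from P1 to 12 weeks were.

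**Figure D2:**
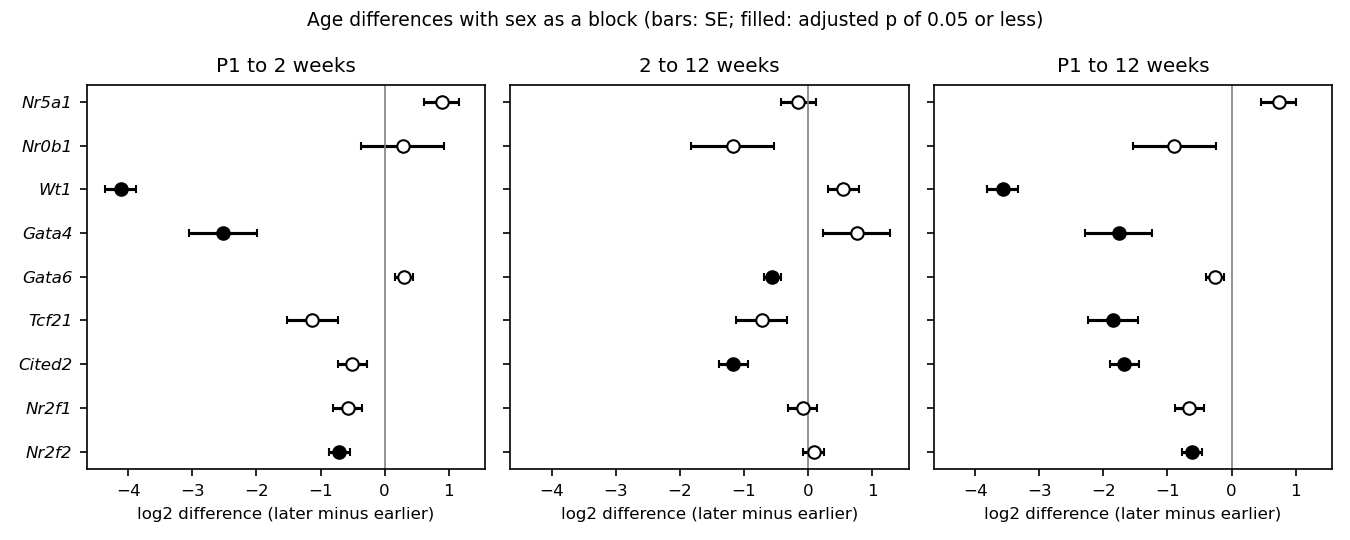
Fitted log2 difference (x axis, later minus earlier) of each gene for 3 pairs of ages, with its SE, from limma over the 6 postnatal libraries. Filled points have an adjusted p of 0.05 or less and are all left of 0. Wt1 is farthest from 0 in the left and right panels, at -4.12 and -3.57.

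Wt1 and Cited2 stand at the top of the pathway. Wt1, a zinc finger factor that marks the primordium, stood at 314.2 at E18.5, and at 578.5 (male) and 688.8 (female) normalized counts on P1. At 2 weeks it had 32.9 in males and 37.9 in females, and at 12 weeks 50.3 and 54.3. The 3 youngest libraries thus lay apart from the other 4, and the sexes differed by 1.19-fold or less at each age. The fitted difference was -4.12 ± 0.24 (SE, adjusted p = 0.001003) from P1 to 2 weeks and -3.57 ± 0.24 (adjusted p = 0.000213) from P1 to 12 weeks. Between 2 and 12 weeks it was 0.55 (adjusted p = 0.170). The first of these calls was lost without the P1 male library (adjusted p = 0.0746) or the P1 female library (0.0519), with differences of -4.17 and -4.07, and with no filter on low values (0.0787), and the second was kept in every alternative run.

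Wt1 is known to stay on in mesothelium and in kidney podocytes. Markers of mesothelium moved with it, and those of podocytes did so only in part. All 6 mesothelium genes fell from P1 to 2 weeks (median -2.79) and from P1 to 12 weeks (median -3.19), and their summed level was 3236 at E18.5, 3953 and 6413 at P1, 585.3 and 860.2 at 2 weeks, and 634.8 and 760.3 at 12 weeks. Msln, the surface protein mesothelin, went from 428.0 and 879.7 at P1 to 89.5 and 107.5 at 12 weeks (-2.63, adjusted p = 0.000766). Upk3b, a uroplakin, had 645.6 and 1158 at P1 and 51.7 and 80.3 at 12 weeks. Of 6 podocyte genes, 4 fell from P1 to 2 weeks and 4 from P1 to 12 weeks. Their summed level was 5766 and 4695 at P1. At E18.5 it was 2955, which is below the 3272 to 4503 at 2 and 12 weeks. The defining gene Nphs1, which encodes nephrin of the kidney filter, had 118.6 and 19.9 normalized counts in P1 males and females and 0 reads at 2 and 12 weeks. In P1 female, Wt1 and the mesothelium sum were higher than in P1 male, and Nphs1 and the kidney tubule sum (2620 against 9467) were lower. The part of these cells in the Wt1 level was not tested.

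**Figure D3:**
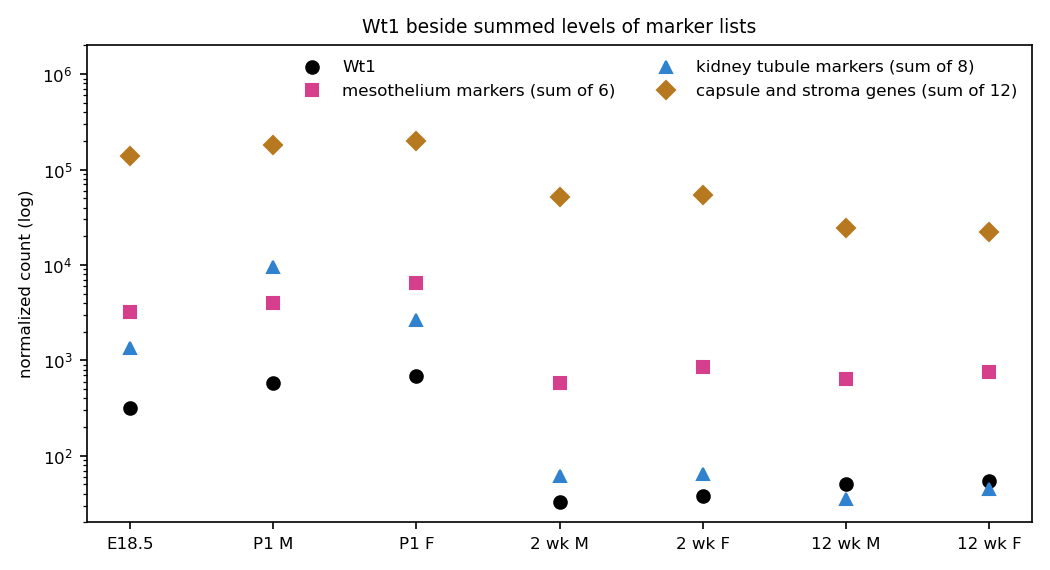
Wt1 and the summed normalized counts of 3 marker lists (log axis) in the 7 libraries (M, male; F, female). Wt1, mesothelium and kidney tubule markers are all high in the 3 youngest libraries and low in the other 4. The capsule and stroma sum is also higher in the 3 youngest (140199 to 197262) than in the other 4 (21915 to 54469). It is lower at 12 weeks than at 2 weeks.

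Cited2, a coactivator without a DNA-binding domain that partners Wt1, was lowest in adults. It stood at 542.8 at E18.5, at 636.6 (male) and 1131 (female) normalized counts on P1, 600.5 and 594.6 in males and females at 2 weeks, and 239.1 and 295.3 at 12 weeks. Both 12-week libraries lay below the other 5. Cited2 fell by 1.17 ± 0.23 (SE, adjusted p = 0.0209) from 2 to 12 weeks, and from P1 to 12 weeks by 1.67 ± 0.23 (adjusted p = 0.00221), a call kept in every alternative run. Without the 2-week male or the 2-week female library the first call was lost (adjusted p = 0.228 and 0.0760). In P1 female the level was 1.78 times that of P1 male (95% exact binomial interval 1.62 to 1.95, which covers counting error between these 2 libraries only).

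Nr5a1 had 7143 normalized counts at E18.5, 5329 and 4798 in P1 males and females, 9640 and 9100 at 2 weeks, and 6146 and 11600 at 12 weeks. Both P1 libraries were the lowest of the 7, both 2-week libraries were higher, and at 12 weeks the female library was the highest of all while the male library lay below E18.5. The rise from P1 to 2 weeks was not called (0.89 ± 0.27 SE, adjusted p = 0.0750), although the ratios of 2-week to P1 libraries were 1.81 in males and 1.90 in females. Leaving out a 12-week library brought this difference past the threshold (adjusted p = 0.00113 without the male and 0.000978 without the female). From P1 to 12 weeks it was 0.74 ± 0.27 (adjusted p = 0.0709), and 1.26 (adjusted p = 0.000445) without the 12-week male library. With upper-quartile scaling it was 0.85 and passed (adjusted p = 0.0483).

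Genes under the control of Nr5a1 are known to include those of steroid synthesis. Of 12 such genes, 2 rose from P1 to 2 weeks, 1 from 2 to 12 weeks and 5 from P1 to 12 weeks. Of all genes tested, 5.89%, 5.40% and 17.6% were called higher in these comparisons. At the limma threshold 0 of the 12 fell in any of these 3 comparisons, where 10.5%, 9.89% and 23.5% of all genes did. From P1 to 12 weeks the difference was positive for 10 and negative for 2. All 12 were lower in both P1 libraries than at E18.5. Their summed level was 641242 at E18.5, 443883 and 266153 in P1 males and females, and 546307 and 552903 at 2 weeks. At 12 weeks it was 883018 and 1150272. Star rose from 97447 and 47002 normalized counts at P1 to 372882 and 357347 at 12 weeks (2.43, adjusted p = 0.00326), and Hsd3b1, which makes progesterone, from 68986 and 82840 to 225943 and 355249 (1.91, adjusted p = 0.00441). Cyp11a1, the first enzyme of the path, had 50055 and 21943 at P1 and 62866 and 64654 at 12 weeks (0.94, adjusted p = 0.0692), and Cyp21a1 had a difference of 1.03 (adjusted p = 0.0797). Cyp11b1, which makes corticosterone, did not pass either (1.002, adjusted p = 0.0997). RefSeq promoter windows were at hand for 5 of the 12 genes, 1 of which (Cyp11a1) held AGGTCA and 0 AAGGTCA.

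Nr0b1 was set apart by 1 library. It had 154.6 normalized counts at E18.5, 225.0 and 250.6 in P1 males and females, and 274.0 and 305.3 at 2 weeks. At 12 weeks it had 46.1 in males, from 33 reads, and 349.6 in females, from 309 reads. The 12-week male value was the lowest and the 12-week female value the highest of the 7. No age difference was called (2 to 12 weeks -1.17 ± 0.65 SE, adjusted p = 0.262; P1 to 12 weeks -0.89, adjusted p = 0.307). These values depend on the sex taken: without the 12-week female library the difference from 2 to 12 weeks was -2.54 (adjusted p = 2.74e-05), and without the male library it was 0.20 (adjusted p = 0.703). Per 100 reads of Nr5a1, Nr0b1 had 2.16 reads at E18.5, 4.22 and 5.22 at P1, 2.84 and 3.35 at 2 weeks, and 0.751 and 3.01 at 12 weeks. By this ratio too, the 12-week male library was the lowest of the 7, and the reason was not tested.

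The GATA pair took different courses. Gata4, which is best known from the heart and the gonad, had 105.9 normalized counts at E18.5 and 103.1 and 122.5 at P1. It had 14.2 in males and 24.7 in females at 2 weeks, from 16 and 28 reads, and 13.98 and 73.5 at 12 weeks, from 10 and 65 reads. The 3 youngest libraries lay above the other 4, with the 12-week female library closest to them. The difference was -2.52 ± 0.53 (SE, adjusted p = 0.0244) from P1 to 2 weeks and -1.76 ± 0.53 (adjusted p = 0.0372) from P1 to 12 weeks. Both calls were lost without either P1 library or either 2-week library. The second was also lost without the 12-week male library (-0.86, adjusted p = 0.172) and among genes with a mean of 50 or more (adjusted p = 0.0513). From 2 to 12 weeks the difference was 0.76 (adjusted p = 0.371), and 1.66 (adjusted p = 0.0219) without the 12-week male library.

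Gata6, the main GATA factor of the postnatal cortex, had 1401 normalized counts at E18.5, 1554 and 1578 at P1, 1911 and 1951 at 2 weeks, and 1332 and 1290 at 12 weeks. Within each age the sexes lay close together, and the 2-week libraries were the highest. It fell by 0.56 ± 0.14 (SE, adjusted p = 0.0406) from 2 to 12 weeks, a call that was lost without any 1 of the 6 libraries (adjusted p = 0.0690 to 0.289). Gata4 had 7.55 reads per 100 Gata6 reads at E18.5 (95% exact binomial interval 6.25 to 9.06), 6.64 in P1 males and 7.76 in P1 females. The ratio was 0.745 and 1.27 at 2 weeks, 1.05 in 12-week males (0.502 to 1.94) and 5.70 in 12-week females (4.37 to 7.32). It was thus high in the 3 youngest libraries and in adult females, and low in the other 3.

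**Figure D4:**
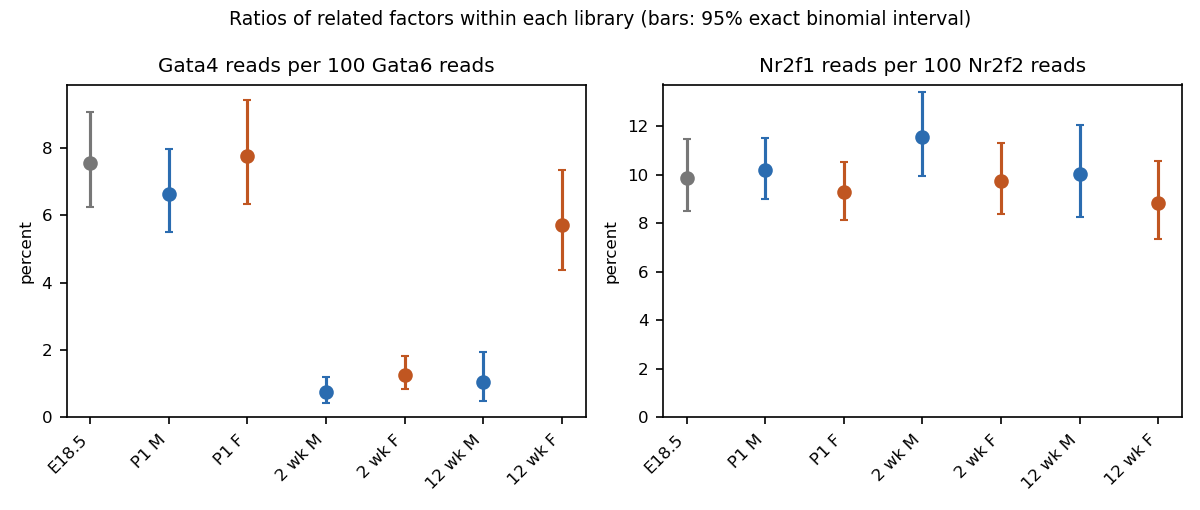
Reads of Gata4 per 100 reads of Gata6 (left) and of Nr2f1 per 100 reads of Nr2f2 (right) in each library, with 95% exact binomial intervals (grey, E18.5; blue, male; orange, female). The left ratio runs from 0.745 to 7.76%, and the right one from 8.85 to 11.6%.

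Nr2f1 and Nr2f2, the COUP transcription factors, are a closely related pair of orphan nuclear receptors. Nr2f2 had 1665 normalized counts at E18.5, 2254 and 3137 in P1 males and females, 1521 and 1744 at 2 weeks, and 1731 and 1738 at 12 weeks. Both P1 libraries lay above all others. The difference was -0.71 ± 0.16 (SE, adjusted p = 0.0326) from P1 to 2 weeks and -0.62 ± 0.16 (adjusted p = 0.0244) from P1 to 12 weeks. Without the P1 female library, the highest, these were -0.52 (adjusted p = 0.176) and -0.43 (adjusted p = 0.142). The first call was also lost without P1 male or either 2-week library, and the second without either 2-week library or the 12-week female library (adjusted p = 0.0644 to 0.242). Nr2f1 had 164.7 normalized counts at E18.5, 229.9 and 291.4 at P1, 176.1 and 170.3 at 2 weeks, and 173.4 and 153.9 at 12 weeks, and its differences were not called (-0.58, adjusted p = 0.136, and -0.66, adjusted p = 0.0561), although the second passed with scaling to equal totals (-0.78, adjusted p = 0.0313). Reads of Nr2f1 per 100 reads of Nr2f2 were 9.89, 10.2, 9.29, 11.6, 9.76, 10.02 and 8.85 from E18.5 to 12-week females. The 7 intervals of this ratio all overlapped, and differences in it between libraries were not tested.

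Tcf21, a helix-loop-helix factor of capsule mesenchyme that is known to repress Nr5a1, had 111.7 normalized counts at E18.5, 175.9 and 238.4 in P1 males and females, 68.5 and 127.0 at 2 weeks, and 71.3 and 44.1 at 12 weeks. The P1 libraries were the highest, and the 2-week female library lay above E18.5. The difference was -1.85 ± 0.40 (SE, adjusted p = 0.0116) from P1 to 12 weeks and -1.13 ± 0.40 (adjusted p = 0.106) from P1 to 2 weeks. The called difference was lost without the P1 male (adjusted p = 0.0964) or the P1 female library (adjusted p = 0.139). From 2 to 12 weeks it was -0.72 (adjusted p = 0.259), and -1.39 (adjusted p = 0.0151) without the 12-week male library. The P1 to 2 weeks difference passed without either 12-week library (adjusted p = 0.00694 and 0.00582). Other capsule and stroma genes moved over these ages as well. Of 12, 6 fell and 0 rose from P1 to 2 weeks, and 9 fell and 1 rose from P1 to 12 weeks. The deepest drops were those of the collagens Col1a1 (-6.03, adjusted p = 6.85e-05) and Col3a1 (-4.66, adjusted p = 8.32e-05). Pdgfra, a growth factor receptor of mesenchyme, fell by 0.99 (adjusted p = 0.00276) and Gli1, a hedgehog target of capsule cells, by 1.46 (adjusted p = 0.0202). Rspo3, the Wnt enhancer that the capsule secretes, rose by 1.16 (adjusted p = 0.0169). The part of the stroma in the Tcf21, Nr2f1 and Nr2f2 levels was not tested.

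Other factors of the primordium were mixed. Of 14, 1 rose and 5 fell from P1 to 2 weeks, 0 rose and 2 fell from 2 to 12 weeks, and 2 rose and 8 fell from P1 to 12 weeks. Hoxb9, a homeodomain factor of the trunk, rose from 627.6 and 503.3 at P1 to 2325 and 2865 at 12 weeks (2.20, adjusted p = 0.000380), and Meis2, a homeodomain cofactor of Hox proteins, by 0.93 (adjusted p = 0.00356). Osr1, a marker of intermediate mesoderm, fell from 286.4 and 378.6 to 20.97 and 17.0 (-4.06, adjusted p = 0.000355). Emx2, needed for the gonad and kidney, had 49.9 and 38.6 at P1. At 12 weeks it had 2.8 and 1.1, from 2 reads and 1 read (-3.98, adjusted p = 0.00423). Lhx9, a gonad factor, had 18.8 and 29.8 at P1. At 12 weeks it had 4.2 and 1.1, from 3 reads and 1 read (-2.89, adjusted p = 0.0252). With so few reads the sizes of both differences are uncertain. Sall1, a kidney progenitor factor, had 415.7 and 277.1 at P1 and 0 reads in both 12-week libraries. Of these, Emx2, Osr1 and Sall1 are also genes of the developing kidney, whose tubule genes fell in all 8 cases from P1 to 2 weeks and from P1 to 12 weeks, and its part was not tested.

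A list of 16 genes held cofactors of Nr5a1 and the GATA factors, and also the helix-loop-helix factors Tcf3, Tcf4 and Tcf12 and the repressor Hic1. Of the 16, 0 rose and 1 fell from P1 to 2 weeks, where 5.89% and 10.5% of all genes did. From 2 to 12 weeks 0 rose and 2 fell, against 5.40% and 9.89%. From P1 to 12 weeks 1 rose and 7 fell, against 17.6% and 23.5%. Zfpm1 and Zfpm2 are the FOG proteins that bind GATA factors. Zfpm2 fell from 552.3 and 661.2 normalized counts at P1 to 310.5 and 298.2 at 2 weeks (-0.99, adjusted p = 0.0194), and Zfpm1 from 422.2 and 565.2 at P1 to 199.9 and 169.7 at 12 weeks (-1.40, adjusted p = 0.00349). Ctnnb1, the Wnt effector beta-catenin, had 11006 to 16251 (P1 to 12 weeks 0.34, adjusted p = 0.163). Hic1, a zinc finger repressor, fell by 1.71 (adjusted p = 0.00363) and Tcf4, a helix-loop-helix partner, rose by 0.74 (adjusted p = 0.0121). Of the 12 paralogues of the members, 11 were tested. From P1 to 12 weeks 0 rose and 4 fell, among them the blood factor Gata1 (-4.39, adjusted p = 0.00129) and Gata2 (-1.18, adjusted p = 0.00576). Nr5a2, the closest relative of Nr5a1, had 107.6 to 194.3 normalized counts (-0.26, adjusted p = 0.473), and Nr0b2, the relative of Nr0b1, rose from P1 to 2 weeks (1.33, adjusted p = 0.0195).

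From E18.5 to P1 no member doubled or fell 2-fold in both P1 libraries, and Nr5a1 was lower while 7 members were higher. With 1 library at E18.5 there is no test. The P1 libraries were both at least 2-fold from E18.5 the same way for 0 members, where this held for 2.91% of genes upward and 2.24% downward. By counting intervals alone, 7 members were higher in both P1 libraries and 1 (Nr5a1) was lower, against 21.9% and 17.5% of all genes. Wt1 had the largest ratios of P1 to E18.5, at 1.84 in males (95% exact binomial interval 1.62 to 2.09) and 2.19 in females (1.93 to 2.50). Nr5a1 had 0.746 and 0.672 of its E18.5 level. Gata4 was the member whose intervals took in 1 in both, with ratios of 0.974 (0.755 to 1.26) and 1.16 (0.889 to 1.51). The sex of the E18.5 pool was not given, and it held Y-linked transcripts. The 4 Y-linked genes summed to 4250 normalized counts there, against 6135 in P1 male and 1273 in P1 female. Sums of liver, muscle and kidney genes also differed between these pools.

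Sexes were compared over the 3 postnatal ages with age as a block, and 0 of the 9 members were called, where 0.00598% of all genes were (Xist alone). The adjusted p of every member was 0.999, 1 member had an unadjusted p under 0.05, and edgeR called 0 as well. Male minus female, the differences farthest from 0 were those of Gata4 (-1.11 ± 0.43 SE, unadjusted p = 0.0400) and Nr0b1 (-1.07 ± 0.53, unadjusted p = 0.0865). This limma fit asks for a sex difference common to all ages. It did not call the 4 Y-linked genes, which in females stood at 0.0758% or less of males at 2 and 12 weeks. The lack of calls therefore does not show that the members were alike in the sexes. Within 1 age there are 2 libraries and no test, and intervals cover counting error only.

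At 12 weeks 2 members were at least 2-fold apart, both higher in females, where 3.98% of all genes were so. Nr0b1 was 7.58 times higher in females (95% exact binomial interval 5.28 to 11.2) and Gata4 5.26 times (2.69 to 11.5). Nr5a1 was 1.89 times higher in females (1.82 to 1.96) and Cited2 1.24 times (1.01 to 1.51), while Tcf21 was 1.62 times higher in males (1.04 to 2.52). By such intervals 22.5% of all genes were higher in females and 24.0% in males. Gata6 (male over female 1.03, 0.947 to 1.13), Nr2f2 (0.996, 0.923 to 1.07), Wt1 (0.927, 0.584 to 1.46) and Nr2f1 (1.13, 0.876 to 1.45) had intervals that took in 1. At P1 and 2 weeks 0 members were 2-fold apart, where 6.78% and 4.24% of genes were. Nr0b1 was 1.11 times higher in females at both ages, with intervals of 0.930 to 1.33 and 0.953 to 1.30. Gata4 was 1.19 times higher (0.912 to 1.55) and 1.74 times higher (0.907 to 3.43). The P1 ratios with intervals clear of 1 on the female side were those of Cited2 (1.78), Nr2f2 (1.39), Tcf21 (1.36), Nr2f1 (1.27) and Wt1 (1.19), in the library that held Y-linked transcripts. Nr5a1 was 1.11 times higher in males. Intervals put 29.4% of all genes higher in P1 female and 24.2% in P1 male. At 2 weeks Tcf21 was 1.85 times higher in females (1.40 to 2.48) and Nr2f2 1.15 times (1.07 to 1.22), where 17.2% of genes were higher in females, and Nr5a1 was 1.06 times higher in males, as were 15.5%. The 2-week female library also had more RNA of other tissues than the male, with sums of 5084 against 164.6 for 8 skeletal muscle genes, 23877 against 8123 for 6 erythroid genes and 34266 against 13129 for 8 liver genes. At P1 the muscle sum was 140741 in females and 77161 in males, and at 12 weeks the erythroid sum was 4721 and 11947. Their part in the sex ratios was not tested.

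**Figure D5:**
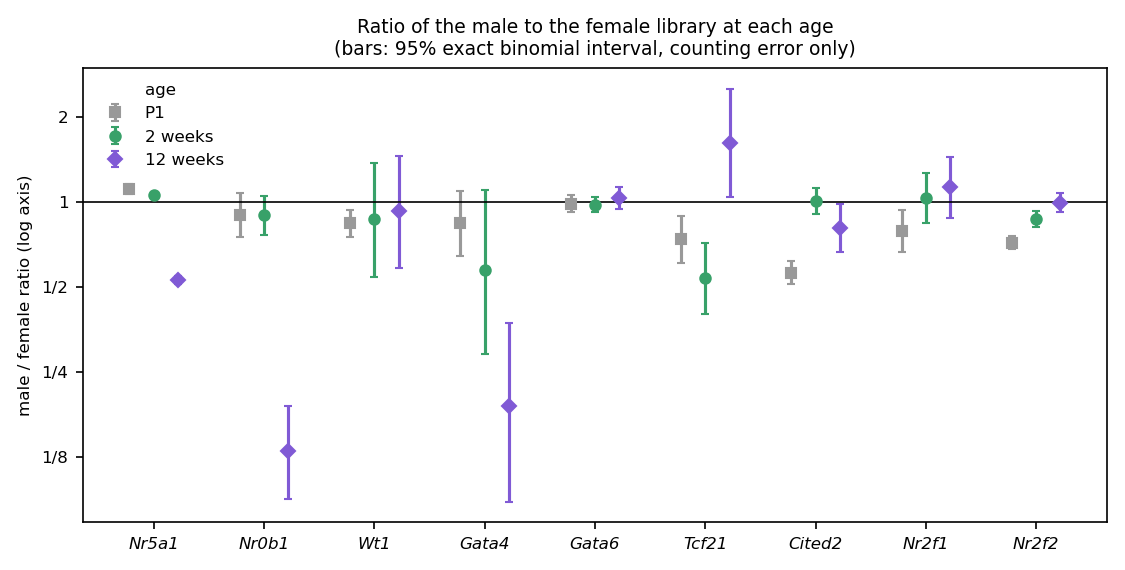
Ratio of the male to the female library (log axis) for each gene at P1, 2 weeks and 12 weeks, with 95% exact binomial intervals that cover counting error only. Nr0b1, Gata4 and Nr5a1 lie below 1 at 12 weeks, and Tcf21 lies above 1 at 12 weeks and below 1 at both younger ages.

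The inner cortex of young mice holds a transient layer, the X-zone, which is lost in males at puberty. Its marker Akr1c18, a progesterone-degrading enzyme, stood at 5346 (male) and 26949 (female) normalized counts at 2 weeks and at 2.8 and 773.9 at 12 weeks, and Pik3c2g had 60.5 and 500.2 and then 0 and 28.3. Both were higher in the female library at each of these ages. The summed level of 12 gonad-type genes was 3749 at E18.5, 2182 and 812.4 at P1, 1382 and 1464 at 2 weeks, and 253.1 and 207.0 at 12 weeks. The highest member in every library was Inha, the inhibin subunit, which is also made by the adrenal cortex. It fell from 1841 and 441.5 at P1 to 120.2 and 81.5 at 12 weeks (-3.17, adjusted p = 0.00267). At 12 weeks, 4 of the 5 genes of this list that were tested were higher in males, 2 of them at least 2-fold, and 1 was at least 2-fold higher in females. Sox9, the Sertoli cell factor, had 41.9 in males and 17.0 in females, and Amhr2, the receptor of anti-Müllerian hormone, had 12.6 and 43.0. Of the genes too low to test, Amh had at most 4.2 in any library, and Foxl2, a granulosa factor, had 2 reads in males and 11 in females at 12 weeks. Inha and Amhr2 are named after their values were seen. Cyp17a1, the androgen-forming enzyme that adult mouse adrenals lack, fell from 85.1 and 33.1 at P1 to 9.8 and 4.5 at 12 weeks (-2.81, adjusted p = 0.00423). The part of X-zone or gonad-type cells in the 12-week sex difference was not tested.

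Genes with the most similar pattern were found among the 12255 genes whose mean was 100 normalized counts or more, by the root mean square (RMS) difference of centred log2 levels over the 7 libraries. For Nr5a1 they were Nqo2, Tysnd1 and Gpam (RMS 0.12, 0.14 and 0.14). Nr0b1 was followed by Sbk1, Ppp1r14c and Pdlim4 (0.31, 0.32 and 0.44). Of these, Sbk1 had 346.7 normalized counts in the male and 1570 in the female library at 12 weeks. The nearest to Wt1 were Thbs4, Pamr1 and Rbp4 (0.28, 0.38 and 0.40), with Thbs4 at 662.0 and 837.8 at P1 and 100.7 and 64.5 at 12 weeks. Gata4 had no close neighbour, with Sema4g, Fah and Ces2g at 0.45, 0.50 and 0.50. Gata6 had the closest, with Palmd, Rnaseh1 and Mtch1 at 0.04, 0.05 and 0.05. Rbm38 and Gypc (0.21 and 0.22) were among the 3 nearest to Tcf21, and the nearest to Cited2 were Bcl9l, Gfra2 and Crocc (0.14, 0.15 and 0.16). Nr2f1 was nearest to Frmd4b, Tshz2 and Reps2 (0.06, 0.06 and 0.07), and Nr2f2 to Cacng7, Efhd2 and Diaph1 (0.07, 0.09 and 0.09). Nr2f1 was the gene of rank 7 for Nr2f2, and Nr2f2 that of rank 21 for Nr2f1 (RMS 0.11), so the pair were near neighbours. Genes that vary little over the libraries have small RMS values for that reason, as Gata6 does.

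Some members overlap genes on the opposite strand, and the use of strand in counting is not given in the sources used here. The exons of Nr2f2 share 643 bases with B130024G19Rik (72.9 to 132.8 normalized counts), those of Nr2f1 share 103 bases with A830082K12Rik (66.3 to 176.5), and those of Gata6 share 93 bases with 1010001N08Rik (84.3 to 195.7). How many reads fell in the shared bases is not known from the table. A830082K12Rik was highest in the 12-week libraries (144.0 and 176.5), where Nr2f1 was not, and it rose from P1 to 12 weeks (0.92, adjusted p = 0.0483).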

How the data were processed

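For the 7 libraries the authors deposited normalized counts, a signal proportional to reads. Every value was a whole multiple of 1 step per library, so whole reads were recovered (100.0% whole, tolerance 0.001 reads). The submitters' processing notes name the build mm10 and the tools CASAVA 1.8.2, HISAT2 2.1.0, HTSeq 0.9.1 and DESeq2 2.11.40.6, with no role or order, and the annotation used is not given in the sources used here. Values of log2(normalized count + 1) entered limma 3.58.1 (R 4.3.3, eBayes with trended variance). P-values were two-sided and adjusted by Benjamini-Hochberg over 16720 genes. edgeR 4.0.16 was run on the recovered reads as an alternative and called 2854, 2441 and 6781 genes in the 3 age comparisons. Gene positions and exon lengths come from GENCODE M21. The coordinates of Gata6 are not reported here. Library and group cannot be separated, since each group is 1 pool. The scripts were tested on simulated data. The members and lists were chosen with earlier results of these data known. Named are all members, the first 4 genes of a list and its 2 highest and 2 lowest called genes, and the 3 genes nearest to each member, of which a few are not reported here.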

Additional observations from a re-analysis of the deposited data

Results flagged for a closer look

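In 2 members the sign of the sex difference changed between ages with counting intervals clear of 1 at every age. The change was not tested. Nr5a1 was higher in males at P1 (male minus female 0.15 on the log2 scale) and at 2 weeks (0.083), and lower in males at 12 weeks (-0.92). Tcf21 was lower in males at P1 (-0.44) and at 2 weeks (-0.88), and higher in males at 12 weeks (0.68). Signs also changed for Cited2 (positive at 2 weeks, 0.014), Gata6 (positive at 12 weeks, 0.047) and Nr2f1 (positive at 2 and 12 weeks, 0.049 and 0.17). The intervals of these positive values took in 1.

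For 2 members the age difference had opposite signs in the sexes with both counting intervals clear of 1. This too was not tested, with 1 library at each end. From 2 to 12 weeks Nr5a1 went down by 0.65 in males (-0.65) and up by 0.35 in females. From P1 to 12 weeks Nr0b1 differed by -2.26 in males and 0.48 in females. Signs also differed from 2 to 12 weeks for Nr0b1 (-2.54 in males, 0.20 in females) and Gata4 (-0.024, 1.54). So they did for Tcf21 (0.057, -1.50) and Nr2f2 (0.19, -0.0053). In each of these, 1 sex had an interval that took in 1.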

How the results depend on the processing

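No paired analysis was possible because the labels carry no replicate numbers that pair pools, and the blocks used were sex in the age fits and age in the sex fit. Of 540 alternative values of the members' tested differences, 460 kept their direction and side of the threshold, 45 lost and 11 gained a call, and 24 changed sign. Of 225 values of the untested differences, 218 moved by less than their counting interval and 7 moved by more. The causes were not tested, except that leaving out a library leaves fewer samples.

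With no filter on low values, 0 genes were called from P1 to 2 weeks, 0 from 2 to 12 weeks and 0 between the sexes (6431, 6036 and 783 at an unadjusted p under 0.05), where the fits reported gave 2737, 2557 and 1. The members called went from 3, 2 and 5 in the 3 age comparisons to 0, 0 and 2. With a common prior variance for all genes in eBayes, these became 1672, 1661 and 0 (4969, 5019 and 638 unadjusted), and the members called 1, 0 and 3. With upper-quartile scaling 1 member was called from 2 to 12 weeks. Leaving out 1 library at a time gave 2 to 4461 genes and 0 to 5 members from P1 to 2 weeks, 421 to 3035 genes and 0 to 3 members from 2 to 12 weeks, 3207 to 6271 genes and 2 to 5 members from P1 to 12 weeks, and 0 to 51 genes between the sexes.

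Scaling to equal totals moved the median of all genes from 2 to 12 weeks to -0.20, and the higher and lower calls from 903 and 1654 to 647 and 2514; upper-quartile scaling gave 1165 and 1466. From P1 to 12 weeks the calls of 2944 and 3937 became 2366 and 4544, and 3690 and 3514.

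Counts of genes at least 2-fold apart were 861 from E18.5 to P1, and 1134, 709 and 1476 between the sexes at P1, 2 weeks and 12 weeks. They became 2157, 4550, 2331 and 5215 with no filter, 411, 473, 325 and 814 with a mean of at least 50, and 2402, 3206, 1684 and 3746 at 1.5-fold, where the members counted were 2, 1, 2 and 4. With a pseudocount of 5 the count at 2 weeks was 455.

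The 24 changes of sign were all in differences that were not called. Leaving out 1 library at a time gave Nr0b1 -0.40 to 0.97 from P1 to 2 weeks (negative without P1 female or 2-week male), and -2.26 to 0.48 from P1 to 12 weeks. From 2 to 12 weeks it gave Nr5a1 -0.67 to 0.37, Nr0b1 -2.54 to 0.20, Gata4 -0.15 to 1.66, Nr2f1 -0.24 to 0.075 and Nr2f2 -0.075 to 0.26. Nr0b1 and Nr2f2 changed sign without the 12-week male library, Gata4 and Nr2f1 without the 12-week female library, and Nr5a1 without the 2-week or 12-week male library. In the comparison of the sexes it gave Nr5a1 -0.42 to 0.12, Gata6 -0.026 to 0.012, Tcf21 -0.66 to 0.12 and Nr2f1 -0.15 to 0.11. With equal totals, Nr2f2 was -0.079 from 2 to 12 weeks, and between the sexes Gata6 was 0.060 and Nr2f1 0.021. Gata6 was 0.0065 with TMM and 0.011 with upper-quartile scaling.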
